A study of Mus musculus with 16 samples.

Results

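The genes described here are 35 genes of glucose use in mouse CD4+ T cells, from the carriers that bring glucose into the cell to the enzyme that makes lactate and the carriers that let lactate out. They were chosen by symbol, as a list of glycolytic enzymes, their regulators and the glucose and lactate carriers, out of 53090 genes in the tables. The rule itself uses no measured value, but the list was chosen with earlier results of these data known. All 35 symbols were found. Aldoa had a second, nearly empty row in the tables, and only the row of the main gene was used.

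The study compared mice that lack Aim2, the gene of a cytosolic sensor of double-stranded DNA, with wild type (WT) C57BL/6 mice, and asked whether AIM2 acts inside CD4+ T cells. There were 4 groups of 4 libraries. WT Tn and Aim2-/- Tn were naive CD4+ T cells taken from the spleen and not cultured. WT Treg and Aim2-/- Treg were CD4+ T cells stimulated and kept for 2 days with TGF-beta and IL-2, conditions that drive naive cells towards regulatory T cells. The study's methods name antibodies to CD3 and CD28 for its stimulation of CD4+ T cells, but do not name the stimulus of the Treg culture. The deficiency was carried by the whole mouse and not by T cells alone, on a C57BL/6 background. The cells of the Treg groups were not sorted for FOXP3 according to the study's methods, so Treg stands here for the culture and not for a purified cell type. The ages of the mice and the number of mice behind each library were not given in the sources used here, so the p-values measure the spread between these libraries.

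Glycolysis turns glucose into pyruvate in the cytosol and yields ATP and NADH. Hexokinase, phosphofructokinase 1 and pyruvate kinase catalyse its irreversible steps, and lactate dehydrogenase reoxidises NADH by turning pyruvate into lactate. Resting naive T cells rely mostly on mitochondrial respiration, and activation through the T cell receptor and CD28 is known to raise glucose uptake and lactate release. Several steps are encoded by more than 1 gene, and the isoenzymes differ in affinity, regulation or tissue.

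Stranded mRNA libraries were sequenced as 51 nt single reads, and the total count per library lay between 22516424 and 34533316. Levels are given as CPM, counts scaled to a common library size with TMM factors, and 3 counts, taken as the floor, were 0.0869 to 0.133 CPM. No member had fewer than 12 counts in any library, and all 35 passed the filter on low counts in every comparison. Aim2 itself lay at 32.0 to 37.8 CPM in WT Tn and 36.1 to 43.7 in WT Treg, against 6.44 to 9.21 and 7.29 to 11 in the Aim2-/- groups, in accord with the labels of all 16 libraries. The CD4 T cell markers were present in every library, all 7 naive T cell markers were lower in Treg than in Tn in both genotypes, and 7 of 8 markers of activated or regulatory T cells were higher, Ctla4 being the one that was not. Of the defining markers of other cells, Ms4a1 and S100a8 were at 0 in all 16 libraries, but the summed levels of other lists were not. The 7 B cell markers, nearly all of it from Ighm, summed to 421 to 560 CPM in Tn and 122 to 171 in Treg, the 4 NK cell markers to 16 to 37 and 1.64 to 8.16, and the 2 CD8 T cell markers to 8.91 to 12.1 and 2.29 to 4.08. Every tested marker of these lists, of the platelet list and all 7 CD4 T cell markers were lower in Treg in both genotypes, and their part in the results on culture was not tested. Because these are bulk samples, fewer cells of a type and less RNA per cell cannot be told apart.

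Some libraries of a group stood apart from the others, and several members moved with them. In WT Tn, the mean of replicates 1 and 2 differed at least 2-fold from the mean of replicates 3 and 4 for 1169 of 13441 genes (8.7%), and for 3 members, Slc2a1, Hk2 and Slc16a1. The same comparison gave 332 genes (2.47%) and no member in Aim2-/- Tn, 362 genes (2.74%) and no member in WT Treg, and 823 genes (6.22%) and 2 members, Slc16a3 and Pdk2, in Aim2-/- Treg. Among markers, Ccr7 averaged 1470 CPM in WT Tn replicates 1 and 2 and 411 in replicates 3 and 4, and Ctla4 79.5 and 15.1. Both are single genes of longer lists and were named outside a rule. The other markers of their lists are not described by this split. Over the WT Tn libraries, the 7 naive T cell markers summed to 4430 to 6170 CPM. The 8 markers of activated or regulatory T cells summed to 95.3 to 152 CPM. In the cultures, Foxp3, the defining factor of regulatory T cells, lay at 568, 574, 500 and 283 CPM in WT Treg and at 567, 530, 334 and 293 in Aim2-/- Treg, so that WT Treg replicate 4 and Aim2-/- Treg replicates 3 and 4 were lowest. Replicate numbers are those of the titles, and what these libraries share was not given in the sources used here. For several members whose values moved with these libraries, the change is also given from replicates 1 and 2 and from replicates 3 and 4.

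Seen as a whole, the 35 genes took a larger part of the library after culture. Their counts summed to 0.449% ± 0.0148 of all counts in WT Tn and 0.454% ± 0.0283 in Aim2-/- Tn, against 1.17% ± 0.0536 in WT Treg and 1.23% ± 0.0824 in Aim2-/- Treg (mean ± SD, n = 4). The lowest Treg library, at 1.12%, lay above the highest Tn library, at 0.488%, and the ranges of the genotypes overlapped within each state. This gain was unevenly spread over the pathway. Between WT Tn and WT Treg, 19 of the 35 members rose and 9 fell at an adjusted p under 0.05 (edgeR's quasi-likelihood test), and in Aim2-/- cells 21 rose and 9 fell. The background was high: 76.9% of all 13675 genes tested passed the same threshold in WT (37.7% higher and 39.2% lower) and 79.3% of 13713 in Aim2-/- cells (39.1% higher and 40.2% lower). The 28 members called in WT are thus a share near that of all genes, and the list is described by the size and direction of its changes. The median log2 fold change of the members was 0.40 in WT and 0.60 in Aim2-/-, beside -0.05 and -0.04 for all genes tested. At an unadjusted p under 0.05 there were 28 members in WT, beside 78.3% of all genes, and 30 in Aim2-/- cells, beside 80.4%. Tn and Treg did not overlap for 27 of the members called in WT and 29 of those called in Aim2-/- cells, as held for 72.9% and 74.7% of all genes. Each genotype has its own naive and cultured libraries. In both, 27 members were called, 19 up and 8 down, 1 was called in WT only, 3 in Aim2-/- only and 4 in neither.

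**Figure D1:**
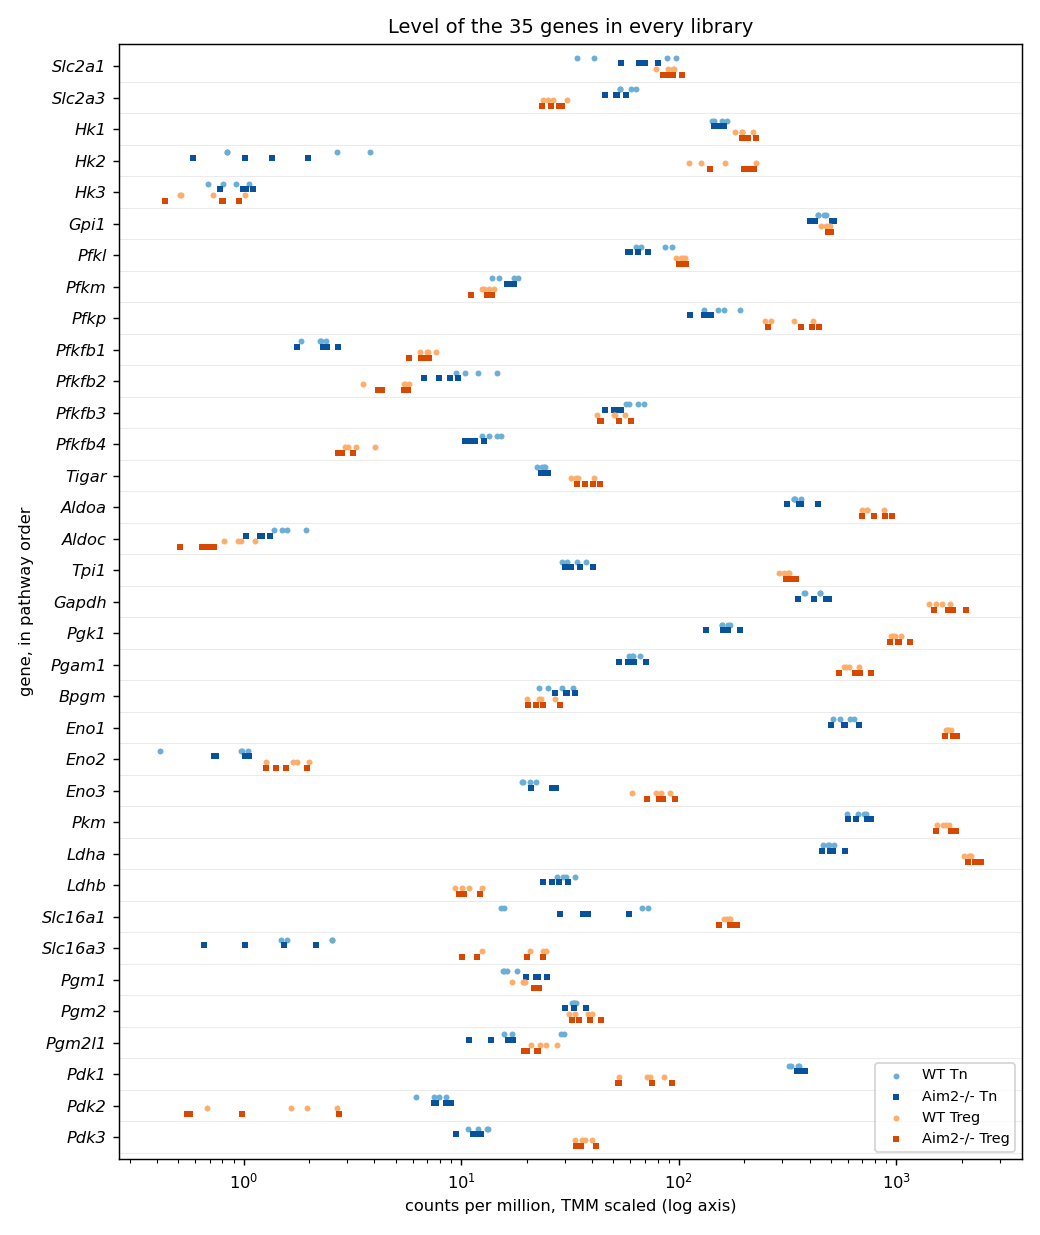
CPM after TMM scaling on a log axis for the 35 genes in pathway order, 1 point per library, with WT as circles and Aim2-/- as squares, Tn in blue and Treg in orange. The Treg points lie far to the right of the Tn points for Hk2, Tpi1, Pgk1, Pgam1 and Ldha, far to the left for Pdk1, Pfkfb4 and Ldhb, and among the Tn points for Gpi1 and Pgm2.

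Glucose enters T cells through the facilitative carriers GLUT1, encoded by Slc2a1, and GLUT3, encoded by Slc2a3. Slc2a1 lay at 88.4, 97.3, 34.1 and 41.0 CPM in WT Tn, 80.6, 69.8, 54.4 and 65.9 in Aim2-/- Tn, 94.0, 95.1, 78.8 and 89.0 in WT Treg and 94.2, 104, 88.8 and 84.8 in Aim2-/- Treg. WT Tn replicates 1 and 2 were already at the level of the cultures, while the Aim2-/- groups did not overlap. Slc2a1 rose in Aim2-/- cells (log2 fold change 0.40 ± 0.11 SE, adjusted p = 0.0068) and had the same size of change without passing the test in WT (0.40 ± 0.31, adjusted p = 0.27). In WT the change was 0.02 from replicates 1 and 2 alone and 1.09 from replicates 3 and 4 alone, so the value depended on which naive libraries were used. The rise in Aim2-/- cells no longer passed when all 16 libraries shared an estimate of spread (0.42, adjusted p = 0.15).

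Slc2a3 went the other way. It lay at 60.3, 63.6, 53.8 and 54 CPM in WT Tn and 51.9, 57.2, 45.9 and 51.8 in Aim2-/- Tn, against 26.6, 30.6, 23.9 and 25.0 in WT Treg and 28.2, 29.0, 23.6 and 25.9 in Aim2-/- Treg. No Treg library reached a Tn library, and the gene fell by 1.18 on the log2 scale in WT (SE 0.10, adjusted p = 3.5e-06) and by 1.01 in Aim2-/- cells (SE 0.10, adjusted p = 2.4e-06). Per kilobase of transcript, Slc2a1 made up 58.2% ± 8.12 of the summed level of both carriers in Tn and 80.6% ± 0.972 in Treg (mean ± SD over 8 libraries), and the range was 43.4% to 65.3% in Tn and 79.1% to 82.1% in Treg.

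Hexokinase phosphorylates glucose and so keeps it in the cell. Its isoenzyme genes behaved differently: Hk1, the widely expressed form, rose little, Hk2, the inducible form, rose more than any other member, and Hk3 stayed near the bottom of the measured range. Hk1 lay at 142, 146, 159 and 167 CPM in WT Tn, 162, 151, 157 and 145 in Aim2-/- Tn, 196, 196, 182 and 220 in WT Treg and 196, 228, 228 and 209 in Aim2-/- Treg. The states did not overlap in either genotype, and the log2 fold changes were 0.32 ± 0.08 in WT (adjusted p = 0.0051) and 0.43 ± 0.08 in Aim2-/- cells (adjusted p = 0.00029).

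Hk2 was close to absent from naive cells, with 2.69, 3.82, 0.838 and 0.843 CPM in WT Tn and 1.98, 1.02, 0.586 and 1.35 in Aim2-/- Tn. After culture it lay at 127, 163, 112 and 226 CPM in WT and at 139, 199, 223 and 210 in Aim2-/-. The lowest cultured library was far above the highest naive one, and the log2 fold changes were 6.20 ± 0.50 in WT (adjusted p = 3.2e-06) and 7.23 ± 0.28 in Aim2-/- cells (adjusted p = 4.0e-09). The difference between these changes did not pass the interaction test (1.01 ± 0.59, adjusted p = 1.0). From replicates 1 and 2 alone the change in WT was 5.48, and from replicates 3 and 4 alone 7.57. Naive replicates 1 and 2 held more Hk2 than 3 and 4, and cultured replicate 4 held the most. Hk3, a hexokinase best known from myeloid cells, lay between 0.437 and 1.1 CPM over all 16 libraries and was called in neither genotype. The summed level of 9 myeloid markers was 12.3 to 19.8 CPM in WT Tn and 2.33 to 3.08 in WT Treg, and their part in the Hk3 reads was not tested.

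Per kilobase of transcript, Hk1 held 98.6% ± 0.543 of the hexokinase level in Tn and 63.9% ± 4.61 in Treg, and Hk2 0.729% ± 0.521 and 35.8% ± 4.60 (mean ± SD, n = 8). Hk1 was thus the more abundant form in all 16 libraries when the length of the principal transcript was used. With the summed length of all annotated exons, Hk2 came to 53.7% in Treg, so the order of Hk1 and Hk2 after culture rests on the length chosen, while Hk2 gained under each length used.

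The sequence around the start sites of the members was searched for motifs of factors known to act on glycolytic genes. Whether these factors had a part in the changes was not tested. RefSeq windows from 250 bases before to 50 bases after a start on GRCm38.p6 were available for 34 members, Slc2a3 being the exception. The letters searched on both strands were CACGTG, the E-box that MYC with MAX can bind, ACGTG, the core of the hypoxia response element that HIF factors can bind, and GCGTG, a variant of that core. An E-box holds the hypoxia core on each strand and so also counts as 2 matches to it. The E-box was present in 7 of the 34 members (20.6%) and in 8.09% of 27025 genes with a window. The hypoxia core was present in 21 (61.8%), against 21.8% of all genes, and the last motif in 19 (55.9%), against 35.2%. The genes with a window include non-coding ones, genes differ in their number of starts, and a match is only a run of letters. Among the 19 members that rose in WT, 2 held the E-box and 11 the hypoxia core, and among the 8 with a window that fell, 4 and 5 did. The last motif was present in 11 of the 19 that rose and 7 of the 8 that fell. Below are the 250 bases before the start for the largest rise (Hk2), the largest fall in WT (Pdk1) and the lactate dehydrogenase pair that moved apart (Ldha and Ldhb), 5′ to 3′ on the gene's strand, with every match to the 3 searched motifs in capitals. Their positions are chr6:82774455-82774704 on the minus strand for Hk2, chr7:46845554-46845803 on the plus strand for Ldha, chr6:142507958-142508207 on the minus strand for Ldhb and chr2:71872974-71873223 on the plus strand for Pdk1.
Hk2: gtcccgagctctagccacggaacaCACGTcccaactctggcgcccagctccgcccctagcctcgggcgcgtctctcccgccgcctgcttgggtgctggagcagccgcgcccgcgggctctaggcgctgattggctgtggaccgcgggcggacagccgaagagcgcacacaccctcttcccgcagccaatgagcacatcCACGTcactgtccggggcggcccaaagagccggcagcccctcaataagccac
Ldha: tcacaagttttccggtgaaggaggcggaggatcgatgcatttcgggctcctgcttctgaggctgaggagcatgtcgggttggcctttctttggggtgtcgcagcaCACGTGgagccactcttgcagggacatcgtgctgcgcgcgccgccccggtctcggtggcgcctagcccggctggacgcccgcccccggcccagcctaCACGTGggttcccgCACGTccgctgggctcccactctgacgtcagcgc
Ldhb: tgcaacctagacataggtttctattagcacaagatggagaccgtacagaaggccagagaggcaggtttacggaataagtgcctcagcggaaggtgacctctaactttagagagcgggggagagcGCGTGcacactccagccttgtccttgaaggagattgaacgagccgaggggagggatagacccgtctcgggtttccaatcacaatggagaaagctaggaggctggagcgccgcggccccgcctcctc
Pdk1: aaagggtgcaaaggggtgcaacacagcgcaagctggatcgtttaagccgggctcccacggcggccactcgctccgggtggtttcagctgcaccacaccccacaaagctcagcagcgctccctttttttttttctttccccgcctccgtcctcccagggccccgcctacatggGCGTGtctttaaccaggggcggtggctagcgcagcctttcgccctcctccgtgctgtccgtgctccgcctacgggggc
The stretch before Ldha held 2 E-boxes and 1 further hypoxia core on the other strand, that before Hk2 held 2 hypoxia cores read from the other strand, and those before Ldhb and Pdk1 held 1 match each to the last motif. Ldha and Pdk1 have a second annotated start that is not shown.

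Glucose phosphate isomerase, encoded by Gpi1, was the core step that moved least. Gpi1 lay at 474, 468, 437 and 436 CPM in WT Tn, 516, 404, 507 and 425 in Aim2-/- Tn, 497, 475, 453 and 492 in WT Treg and 484, 494, 504 and 498 in Aim2-/- Treg. Tn and Treg overlapped in each genotype, and the log2 fold changes on culture were 0.03 ± 0.06 in WT (adjusted p = 0.71) and 0.04 ± 0.09 in Aim2-/- cells (adjusted p = 0.69). Its counts were fractional in all 16 libraries, which means that some reads were shared with near-identical sequence elsewhere.

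Phosphofructokinase 1, which commits fructose 6-phosphate to glycolysis, is built from liver (Pfkl), muscle (Pfkm) and platelet (Pfkp) type subunits. Pfkp, the most abundant per kilobase, lay at 162, 191, 131 and 152 CPM in WT Tn, 133, 141, 113 and 131 in Aim2-/- Tn, 250, 339, 267 and 415 in WT Treg and 257, 364, 441 and 410 in Aim2-/- Treg. The states did not overlap, and the cultured libraries with the lowest Foxp3 held the most Pfkp. Such an order is also given below for Slc16a3, Pdk1 and Pdk2, after their values were seen. How many of all genes set these libraries apart was not counted, and a link with Foxp3 was not tested. Pfkp rose by 0.94 ± 0.17 on the log2 scale in WT (adjusted p = 0.00060) and by 1.45 ± 0.15 in Aim2-/- cells (adjusted p = 3.6e-06). From replicates 1 and 2 alone the rise was 0.74 in WT and 1.11 in Aim2-/- cells, and from replicates 3 and 4 alone 1.19 and 1.72. Pfkl rose less, by 0.36 ± 0.12 and 0.65 ± 0.08 (adjusted p = 0.020 and 1.5e-05), and Pfkm fell, with log2 fold changes of -0.35 ± 0.11 and -0.46 ± 0.11 (adjusted p = 0.019 and 0.0021).

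The Pfkm fall in WT was the least secure call, because WT Tn and WT Treg overlapped. Leaving out any 1 of WT Tn replicates 3 and 4 or WT Treg replicates 2, 3 and 4 raised its adjusted p to between 0.0503 and 0.0816. Pfkp made up 58.2% ± 2.29 of the phosphofructokinase 1 level per kilobase in Tn and 71.2% ± 4.68 in Treg, and its range over libraries, 55.0% to 61.0% in Tn and 65.0% to 76.0% in Treg, did not overlap.

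The bifunctional PFKFB enzymes make and degrade fructose 2,6-bisphosphate, the strongest allosteric activator of phosphofructokinase 1, and Tigar encodes an enzyme that removes it. In naive cells Pfkfb3, the form with the highest kinase activity, was the most abundant per kilobase. It lay at 59.2, 57.5, 65.4 and 69.3 CPM in WT Tn, 52.6, 54.2, 46.1 and 50.6 in Aim2-/- Tn, 56.7, 51.2, 50.4 and 42.0 in WT Treg and 60.2, 53.2, 44.2 and 43.7 in Aim2-/- Treg. It fell by 0.38 on the log2 scale in WT (SE 0.11, adjusted p = 0.0087) and had a log2 fold change of -0.07 ± 0.11 in Aim2-/- cells (adjusted p = 0.58), and the difference between these changes was not called (adjusted p = 1.0). From replicates 1 and 2 alone the WT change was -0.12 and was not called.

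Pfkfb4 fell furthest in this family, from 13.5, 12.5, 15.3 and 14.6 CPM in WT Tn to 3.28, 2.93, 3.01 and 4.02 in WT Treg, and from 10.4, 12.8, 11 and 11.6 in Aim2-/- Tn to 2.82, 2.84, 3.18 and 2.72 in Aim2-/- Treg. The states were far apart, with log2 fold changes of -2.13 ± 0.14 and -2.04 ± 0.14 (adjusted p = 5.3e-07 and 9.3e-08). Pfkfb2 fell from 9.48, 10.4, 12.0 and 14.6 CPM to 5.78, 5.50, 5.45 and 3.53 in WT, and from 8.88, 9.65, 6.77 and 7.91 to 5.46, 5.68, 4.31 and 4.15 in Aim2-/- cells, again without overlap (-1.25 ± 0.20 and -0.82 ± 0.17, adjusted p = 0.00025 and 0.00087). Pfkfb1 rose from 1.77 to 2.72 CPM over the naive libraries to 5.78 to 7.67 over the cultured ones (1.63 ± 0.15 and 1.45 ± 0.18, adjusted p = 5.3e-06 and 1.4e-05). Tigar rose from 22.3 to 25.1 CPM to 32.1 to 43.3 (0.53 ± 0.09 and 0.60 ± 0.09, adjusted p = 0.00045 and 7.9e-05). The share of Pfkfb4 in the summed level of the 4 PFKFB genes went from 18.3% ± 1.08 to 5.30% ± 1.06 per kilobase and that of Pfkfb1 from 6.56% ± 1.23 to 23.1% ± 1.94, while Pfkfb3 held 61.6% ± 1.13 and 63.6% ± 2.33.

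From aldolase to pyruvate kinase, the most abundant gene of every step rose in both genotypes. Aldoa, which encodes the main aldolase that splits the hexose, lay at 342, 338, 367 and 341 CPM in WT Tn, 366, 316, 436 and 357 in Aim2-/- Tn, 698, 733, 732 and 880 in WT Treg and 697, 793, 893 and 955 in Aim2-/- Treg. The states did not overlap (1.08 ± 0.08 and 1.12 ± 0.12, adjusted p = 9.7e-07 and 4.8e-06). Aldoc, the brain-type aldolase, fell within a range of 0.513 to 1.93 CPM (-0.78 ± 0.21 and -0.95 ± 0.25, adjusted p = 0.0072 and 0.0041) and made up 0.261% of the aldolase level in Tn and 0.0684% in Treg.

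Tpi1, which interconverts the triose phosphates, rose from 30.7, 29.0, 37.5 and 34.0 CPM in WT Tn and 35.4, 30.1, 40.6 and 31.9 in Aim2-/- Tn to 304, 322, 290 and 317 in WT Treg and 311, 332, 334 and 347 in Aim2-/- Treg. Replicates lay close together beside the gap between the states, and the log2 fold changes were 3.18 ± 0.10 and 3.21 ± 0.10 (adjusted p = 3.7e-09 and 3.2e-10). Gapdh, the step that reduces NAD, went from 445, 448, 379 and 383 CPM to 1526, 1633, 1418 and 1763 in WT and from 476, 355, 493 and 420 to 1488, 1732, 1824 and 2106 in Aim2-/- cells. Gapdh, which is often used as a reference gene, was therefore 3.69-fold higher in WT Treg than in WT Tn and 3.95-fold higher in Aim2-/- Treg than in Aim2-/- Tn (1.88 ± 0.09 and 1.98 ± 0.13 on the log2 scale, adjusted p = 5.5e-08 and 7.6e-08).

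Pgk1, the first step that yields ATP, lay at 172, 159, 168 and 159 CPM in WT Tn, 168, 134, 192 and 160 in Aim2-/- Tn, 952, 990, 971 and 1055 in WT Treg and 942, 1029, 1021 and 1158 in Aim2-/- Treg (2.54 ± 0.06 and 2.61 ± 0.12, adjusted p = 1.0e-09 and 3.7e-09). Pgam1, the phosphoglycerate mutase, lay at 61.6, 59.1, 66.5 and 61.1 CPM in WT Tn, 58.3, 53.5, 70.9 and 62.2 in Aim2-/- Tn, 573, 608, 587 and 673 in WT Treg and 548, 646, 679 and 768 in Aim2-/- Treg. Pgam1 showed the largest rise among the triose steps, 3.24 ± 0.08 in WT and 3.37 ± 0.13 in Aim2-/- cells (adjusted p = 9.6e-10 and 9.2e-10). Bpgm, whose product diverts the same metabolites into 2,3-bisphosphoglycerate and is best known from red cells, did not rise: it ranged from 22.8 to 33.4 CPM in Tn and from 20.2 to 28.5 in Treg, with -0.29 ± 0.14 in WT (adjusted p = 0.075) and -0.42 ± 0.12 in Aim2-/- cells (adjusted p = 0.0066), where the groups still overlapped. The fall in WT passed the test with the replicate block (adjusted p = 0.0193) and without WT Tn replicate 4 (adjusted p = 0.0246), among other alternatives, and that in Aim2-/- cells did not pass from replicates 1 and 2 alone (adjusted p = 0.179). The summed level of 6 erythroid genes was 1.22 to 4.00 CPM in WT Tn and 5.19 to 7.82 in Aim2-/- Tn, against at most 0.188 in Treg. The part of red cell RNA in the Bpgm values was not tested.

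Enolase is encoded by Eno1 in most tissues, Eno2 in neurons and Eno3 in muscle, and all 3 genes rose. Eno1 lay at 551, 513, 637 and 612 CPM in WT Tn, 579, 500, 678 and 585 in Aim2-/- Tn, 1723, 1731, 1690 and 1794 in WT Treg and 1681, 1821, 1849 and 1906 in Aim2-/- Treg (1.53 ± 0.08 and 1.58 ± 0.10, adjusted p = 7.0e-08 and 6.0e-08). Eno3 rose from a range of 19.0 to 27.3 CPM to 61.0 to 96.0 (1.90 ± 0.13 and 1.67 ± 0.12, adjusted p = 5.6e-07 and 1.3e-07), and Eno2 from 0.414 to 1.06 CPM to 1.27 to 2.01 (0.92 ± 0.31 and 0.74 ± 0.26, adjusted p = 0.020 and 0.019). The Eno2 call in Aim2-/- cells was lost without Aim2-/- Tn replicate 1 or 3 (adjusted p = 0.0648 and 0.0575). Eno1 held 94.7% ± 0.861 of the enolase level per kilobase in Tn and 94.0% ± 0.756 in Treg, so the balance of isoenzymes differed little between the states at this step.

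Pkm, which encodes both splice forms of the muscle-type pyruvate kinase, lay at 710, 727, 665 and 597 CPM in WT Tn, 732, 600, 767 and 657 in Aim2-/- Tn, 1634, 1696, 1535 and 1751 in WT Treg and 1533, 1790, 1807 and 1882 in Aim2-/- Treg. It rose by 1.24 ± 0.07 and 1.29 ± 0.10 on the log2 scale (adjusted p = 2.7e-07 and 3.2e-07). Counts per gene do not separate its M1 and M2 forms. Gapdh, Pgk1, Eno1 and Ldha were fractional in all 16 libraries and Pkm in 14, so some of their reads were shared with other sequence, such as processed copies, and their levels carry that uncertainty.

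**Figure D2:**
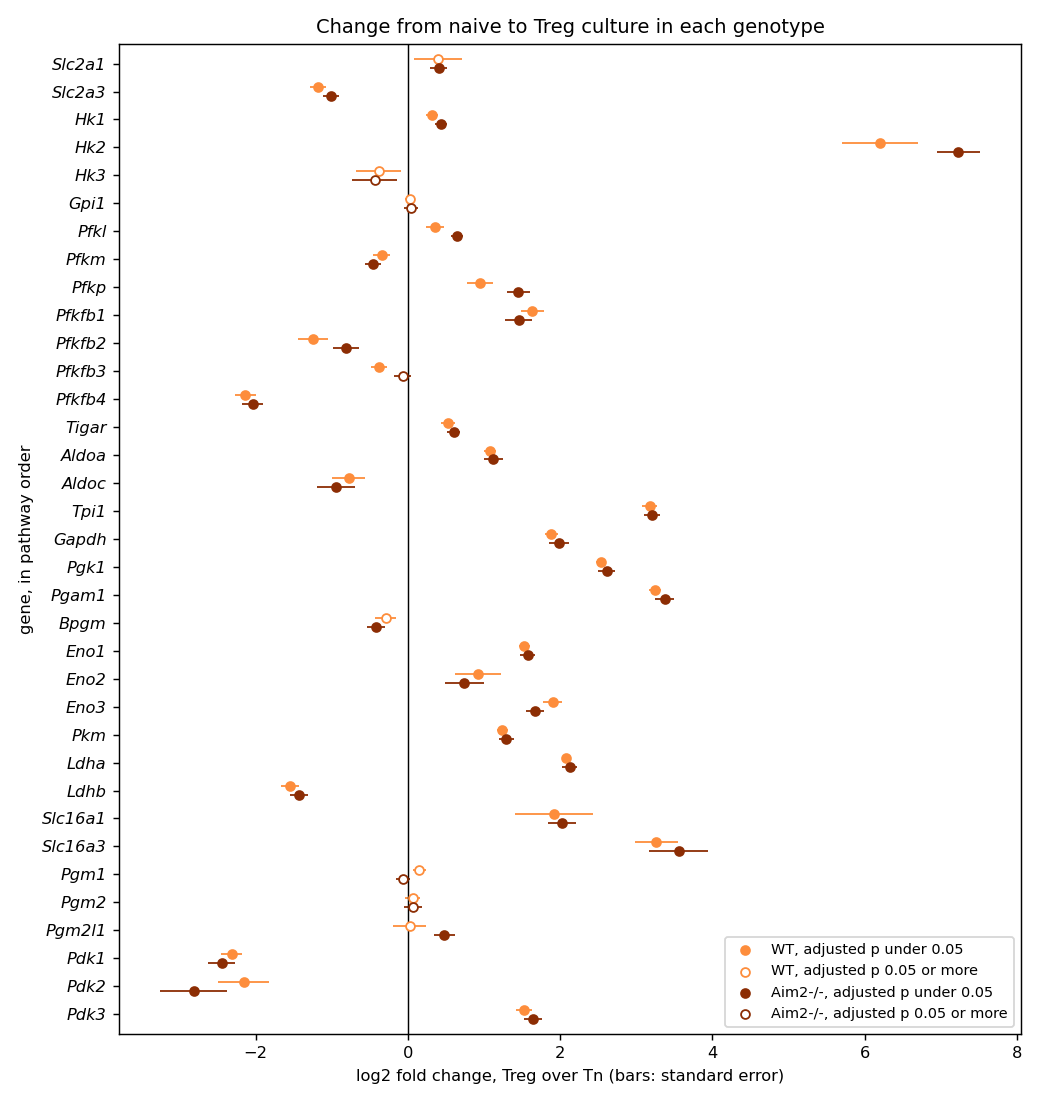
Log2 fold change from Tn to Treg for each of the 35 genes in WT (light) and Aim2-/- (dark) cells, with bars of 1 standard error and filled points where the adjusted p was under 0.05. Both genotypes place Hk2 at the far right (6.20 and 7.23) and Pdk1, Pdk2 and Pfkfb4 at the far left.

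The pair of lactate dehydrogenase genes moved apart. Ldha, whose subunit favours lactate formation, lay at 494, 462, 519 and 485 CPM in WT Tn, 495, 454, 581 and 511 in Aim2-/- Tn, 2162, 2189, 2047 and 2219 in WT Treg and 2144, 2336, 2296 and 2466 in Aim2-/- Treg. It rose by 2.08 ± 0.06 and 2.12 ± 0.10 on the log2 scale (adjusted p = 2.6e-09 and 3.8e-09). Ldhb, whose subunit favours the reverse reaction, fell from 30.4, 27.6, 33.4 and 29.4 CPM to 12.5, 9.38, 10.9 and 10.1 in WT, and from 31.1, 23.8, 28.3 and 26.1 to 12.2, 10.3, 9.88 and 9.74 in Aim2-/- cells (-1.55 ± 0.11 and -1.43 ± 0.12, adjusted p = 1.0e-06 and 4.9e-07). Ldhb made up 6.90% ± 0.669 of the level per kilobase in Tn and 0.611% ± 0.0896 in Treg, and the lowest Tn library, at 5.90%, lay far above the highest Treg library, at 0.737%.

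Lactate leaves the cell with a proton through the monocarboxylate carriers MCT1 (Slc16a1) and MCT4 (Slc16a3), of which MCT4 is known from strongly glycolytic cells. Slc16a1 differed widely among naive libraries, at 67.6, 72.2, 15.8 and 15.2 CPM in WT Tn and 59.1, 38.5, 28.4 and 36.2 in Aim2-/- Tn. After culture it was even, at 161, 167, 171 and 172 CPM in WT and 172, 185, 154 and 174 in Aim2-/-. Every cultured library lay above every naive one, and the log2 fold changes were 1.92 ± 0.51 in WT (adjusted p = 0.0070) and 2.02 ± 0.19 in Aim2-/- cells (adjusted p = 2.7e-06). In WT the rise was 1.23 from replicates 1 and 2 alone and 3.40 from replicates 3 and 4 alone.

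Slc16a3 rose from 2.55, 2.56, 1.59 and 1.48 CPM in WT Tn and 2.16, 1.02, 0.659 and 1.54 in Aim2-/- Tn to 24.6, 23.8, 20.8 and 12.5 in WT Treg and 23.9, 20, 11.8 and 10.1 in Aim2-/- Treg. The states did not overlap (3.27 ± 0.28 and 3.56 ± 0.39, adjusted p = 2.8e-06 and 9.5e-06), and the 3 cultured libraries with the least Foxp3 also held the least Slc16a3. The rise in Aim2-/- cells was 3.74 from replicates 1 and 2 alone and 3.20 from replicates 3 and 4 alone, and in WT 3.24 and 3.37. Slc16a1 remained the more abundant carrier per kilobase, with Slc16a3 at 8.28% ± 4.59 of the summed level in Tn and 16.6% ± 4.69 in Treg, and the ranges over libraries (4.12% to 15.8% and 9.76% to 22.1%) overlapped.

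Pyruvate dehydrogenase kinases block the entry of pyruvate into the mitochondrial citric acid cycle, and their genes moved in different directions. Pdk1 here is pyruvate dehydrogenase kinase 1, not the phosphoinositide-dependent kinase of the same short name. It lay at 323, 330, 359 and 355 CPM in WT Tn and 380, 354, 356 and 352 in Aim2-/- Tn, against 85.4, 73.7, 71.9 and 53.4 in WT Treg and 92.9, 75.7, 53.5 and 52.6 in Aim2-/- Treg. This was the largest fall among the members in WT (-2.32 ± 0.13, adjusted p = 2.2e-07), with a log2 fold change of -2.45 ± 0.18 in Aim2-/- cells (adjusted p = 3.0e-07), where Pdk2 fell further. The cultured libraries lowest in Foxp3 were also the lowest in Pdk1. From replicates 1 and 2 alone, the log2 fold changes of Pdk1 were -2.04 in WT and -2.19 in Aim2-/- cells, and from replicates 3 and 4 alone -2.58 and -2.83.

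Pdk2 fell from 7.51, 6.19, 8.55 and 7.92 CPM to 2.70, 1.65, 1.95 and 0.677 in WT, and from 8.54, 7.70, 8.97 and 7.53 to 2.75, 0.982, 0.547 and 0.566 in Aim2-/- cells (-2.16 ± 0.34 and -2.81 ± 0.44, adjusted p = 0.00022 and 0.00015). The cultured libraries lowest in Foxp3 were again the lowest. From replicates 1 and 2 alone, the log2 fold changes of Pdk2 were -1.67 in WT and -2.19 in Aim2-/- cells, and from replicates 3 and 4 alone -2.68 and -3.96. Pdk3 rose from a range of 9.5 to 13.3 CPM to 33.5 to 41.9 (1.52 ± 0.10 and 1.64 ± 0.11, adjusted p = 4.9e-07 and 1.0e-07). Per kilobase, Pdk1 went from 88.2% ± 0.978 of the kinase level to 42.5% ± 6.14, and Pdk3 from 7.27% ± 0.908 to 55.5% ± 7.05, with no overlap between states for either gene. The order of the pair in Treg rests on the length: Pdk3 held the larger share per kilobase in every Treg library but Aim2-/- replicate 1 (46.3%, against 50.3% for Pdk1), while Pdk1 was higher in CPM in all 8 and held 64.1% of the kinase level there without division by length.

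**Figure D3:**
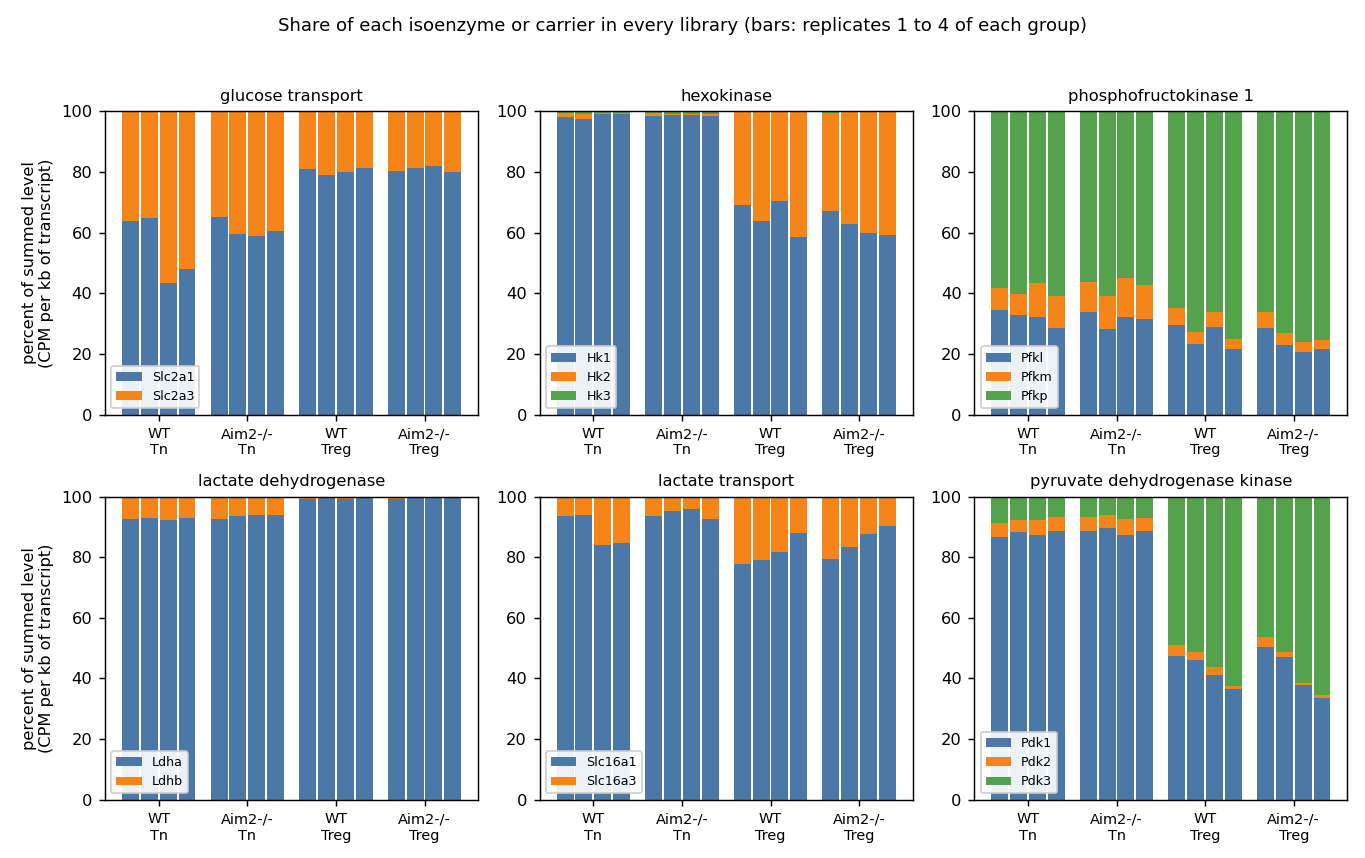
Share of each gene in the summed level (CPM per kb of principal transcript) of 6 families, 1 bar per library, replicates 1 to 4 of each group from left to right. Hk2 appears in the hexokinase bars after culture, Ldhb nearly vanishes from the lactate dehydrogenase bars, and Pdk3 takes over more of the kinase bars, in all 8 cultured libraries.

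The phosphoglucomutase reaction connects glucose 6-phosphate with glucose 1-phosphate and so with glycogen, and the genes listed for this step moved little as a group. How far each of them serves this reaction in these cells was not measured. The names need care: the tables call ENSMUSG00000029171 Pgm1 and ENSMUSG00000025791 Pgm2, while RefSeq gives the reverse, and the tables' names are used here. Pgm2, the most abundant per kilobase, lay at 33.0, 33.9, 33.2 and 32.2 CPM in WT Tn, 37.5, 33.2, 37.4 and 30.1 in Aim2-/- Tn, 40.2, 38.3, 31.4 and 33.3 in WT Treg and 39.0, 43.8, 35 and 32.3 in Aim2-/- Treg. Its groups overlapped (0.06 ± 0.10 and 0.06 ± 0.12, adjusted p = 0.57 and 0.62), and Pgm1 was not called either (0.15 ± 0.09 and -0.06 ± 0.09, adjusted p = 0.15 and 0.53). Pgm2l1, which makes glucose 1,6-bisphosphate, lay at 28.8, 29.6, 17.2 and 15.7 CPM in WT Tn, 17.4, 13.8, 10.9 and 16.5 in Aim2-/- Tn, 23.1, 20.9, 27.6 and 24.6 in WT Treg and 22.4, 19.5, 22.5 and 20.2 in Aim2-/- Treg. It rose in Aim2-/- cells (0.48 ± 0.14, adjusted p = 0.0083). In WT its log2 fold change was 0.02 ± 0.21 (adjusted p = 0.93), and it turned from -0.41 with replicates 1 and 2 alone (adjusted p = 0.0022) to 0.60 with replicates 3 and 4 alone (adjusted p = 0.0024).

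Ordered by level per kilobase, the list was led in Tn by Gapdh (316 CPM per kb), Ldha (298), Eno1 (287), Pkm (280), Aldoa (241) and Gpi1 (159), and in Treg by Ldha (1331), Gapdh (1253), Eno1 (875), Pkm (700), Pgk1 (556) and Aldoa (537). The steps were unequal in naive cells: Tpi1 stood at 20.9 CPM per kb, Pgam1 at 34.7 and Pgk1 at 89.9, the lowest of the steps between aldolase and lactate. Of those steps, Tpi1, Pgam1 and Pgk1 also had the largest fold changes and reached 199, 358 and 556. In CPM per kb, Ldha and Gapdh gained more than they did. Gpi1, which stood between Pgk1 and Aldoa in Tn, was lower than Pgam1 in Treg, at 169.

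The loss of Aim2 was compared with WT within each state. In Tn, no member passed the test, beside 31 of 13441 genes (0.231%, with 0.134% higher and 0.0967% lower), and 7 members had an unadjusted p under 0.05, 5 lower and 2 higher in Aim2-/- Tn, beside 10.3% of all genes. In Treg, no member passed, beside 29 of 13221 genes (0.219%, with 0.129% higher and 0.0908% lower), and 2 members had an unadjusted p under 0.05, beside 2.31% of all genes. Of all 35 members, 22 had a log2 difference above 0 in Tn and 20 in Treg, beside 52.7% and 50.1% of all genes. The median log2 difference of the members was 0.0519 in Tn and 0.0362 in Treg, beside 0.0144 and 0.000443 for all genes tested. DESeq2 called 1 member in Tn and none in Treg. The counts at an unadjusted p depended on single libraries, and are given with those of all genes in the same fit. In Tn they were 3 without Aim2-/- replicate 3 (870 of 13298 genes) and 4 without WT replicate 1 (1128 of 13252). In Treg they were 7 without Aim2-/- replicate 1 (787 of 13096 genes). They were 1 without WT replicate 1 (237 of 13073) or Aim2-/- replicate 3 (268 of 13082). The Treg count was 3 without WT replicate 2 (258 of 13019) or 4 (640 of 13127). With the replicate block it was 8 (1104 of 13221). The median absolute log2 difference over the members was 0.11 in Tn and 0.09 in Treg, beside 0.15 and 0.08 for all genes tested, and the largest was 0.71 in Tn (Hk2, lower in Aim2-/- Tn, but -1.10 from replicates 1 and 2 and 0.23 from replicates 3 and 4) and 0.59 in Treg (Aldoc, lower in Aim2-/- Treg).

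Pgm1, by the tables' naming, had the smallest p in both states. It lay at 16.2, 15.8, 18.1 and 15.6 CPM in WT Tn and 24.8, 19.8, 22.6 and 22.2 in Aim2-/- Tn, and at 19.6, 17.2, 19.3 and 19.5 in WT Treg and 22.7, 21.6, 22.4 and 22.1 in Aim2-/- Treg. The genotypes did not overlap in either state, as held for 6.84% of all genes in Tn and 2.33% in Treg. The log2 difference was 0.47 ± 0.10 in Tn (adjusted p = 0.19) and 0.22 ± 0.07 in Treg (adjusted p = 1.0), so neither passed with edgeR. DESeq2 and a fit of all 16 libraries together called the difference in Tn (adjusted p = 0.0138 and 0.0190), and over all alternatives its adjusted p ranged from 0.0138 to 0.55.

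Eno3 lay at 20.7, 19.3, 19.0 and 22 CPM in WT Tn and 21.0, 26.4, 27.3 and 26.3 in Aim2-/- Tn, with 83.4, 91.0, 61.0 and 78.8 in WT Treg and 81.4, 96.0, 84.5 and 71.8 in Aim2-/- Treg (0.34 ± 0.11 in Tn, adjusted p = 0.39). In naive cells Pfkfb3 was lower in all 4 Aim2-/- libraries than in any WT library (-0.28 ± 0.09, adjusted p = 0.39), and Pfkfb2 had a log2 difference of -0.46 ± 0.17 (adjusted p = 0.42) with overlap. Both differences lay in replicates 3 and 4: there they were -0.47 and -0.85 (adjusted p = 0.0379 and 0.0309), and in replicates 1 and 2 -0.10 and -0.07. In cultured cells the smallest p-values after Pgm1 belonged to Aldoc, Pgm2l1 and Ldha. Aldoc lay at 1.13, 0.811, 0.974 and 0.940 CPM in WT Treg and 0.687, 0.728, 0.513 and 0.642 in Aim2-/- Treg, without overlap, and at 1.59, 1.5, 1.93 and 1.38 in WT Tn and 1.19, 1.33, 1.03 and 1.22 in Aim2-/- Tn, also without overlap (-0.59 ± 0.22 in Treg, adjusted p = 1.0, and -0.39 ± 0.22 in Tn, adjusted p = 0.54). Pgm2l1 and Ldha had log2 differences of -0.20 ± 0.10 and 0.09 ± 0.04 in Treg (adjusted p = 1.0 for each).

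**Figure D4:**
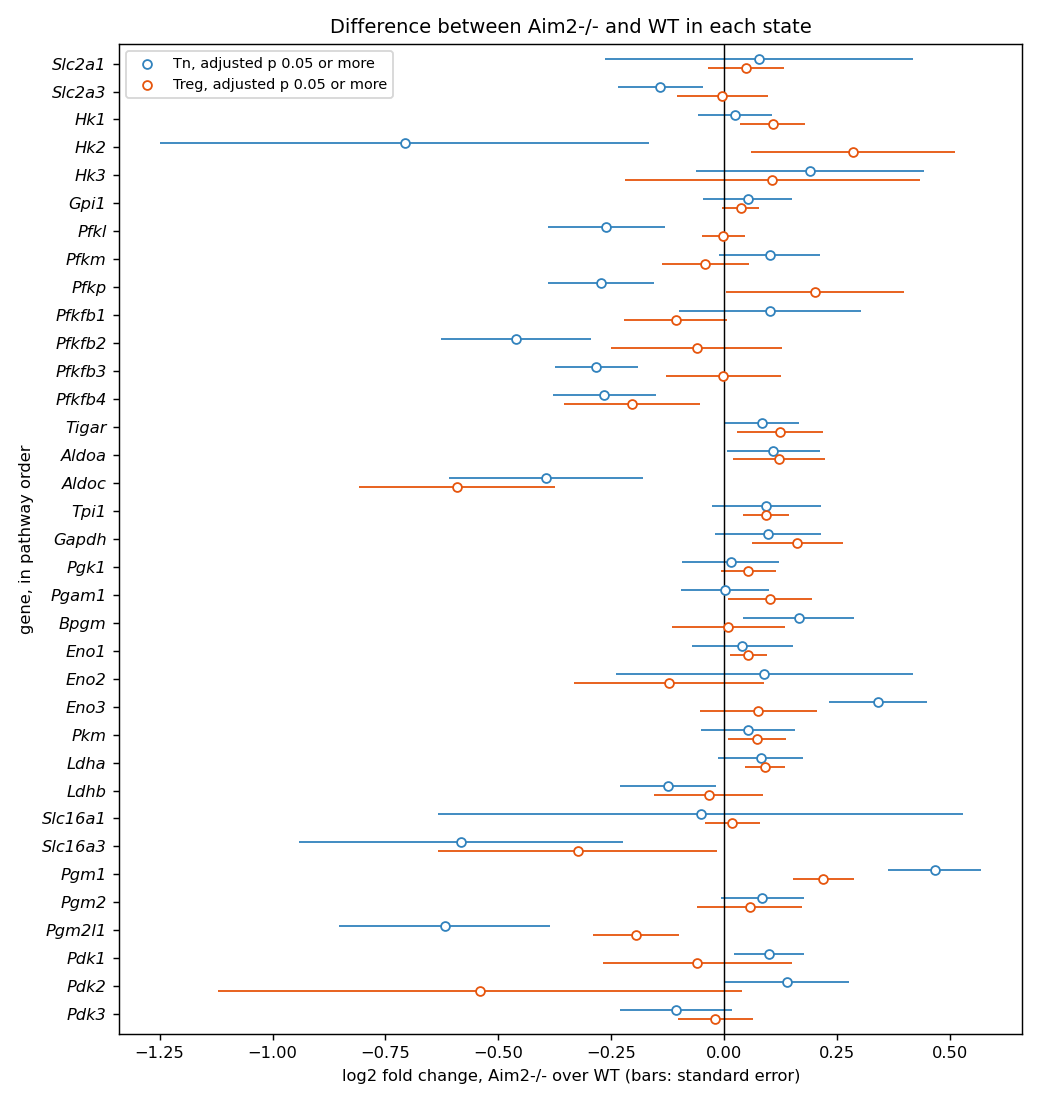
Log2 difference between Aim2-/- and WT for each of the 35 genes in Tn (blue) and Treg (orange), with bars of 1 standard error and open points where the adjusted p was 0.05 or more. All points are open, and the widest bars belong to Hk2 and Slc16a1 in Tn and to Pdk2 in Treg.

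For the carriers, the genotype comparison in naive cells turned on the libraries used. The log2 difference of Slc16a1 was -0.05 ± 0.58 over all 8 naive libraries, -0.50 in replicates 1 and 2 and 1.07 in replicates 3 and 4 (adjusted p = 0.98, 0.263 and 0.0061). Slc2a1 gave 0.08 ± 0.34, -0.28 and 0.69 (adjusted p = 0.95, 0.263 and 0.0251). For both genes the Aim2-/- Tn libraries lay between the high and the low WT Tn libraries, so the sign followed the choice. In the upstream list, Hif1a, the oxygen-regulated subunit of HIF-1, averaged 180 CPM in WT Tn replicates 1 and 2 against 73.0 in replicates 3 and 4. Irf4, an early T cell receptor target, averaged 60.5 against 15.5. Both were named after their values were seen, and the other genes of that list are not described by this split. What set these libraries apart was not tested.

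**Figure D5:**
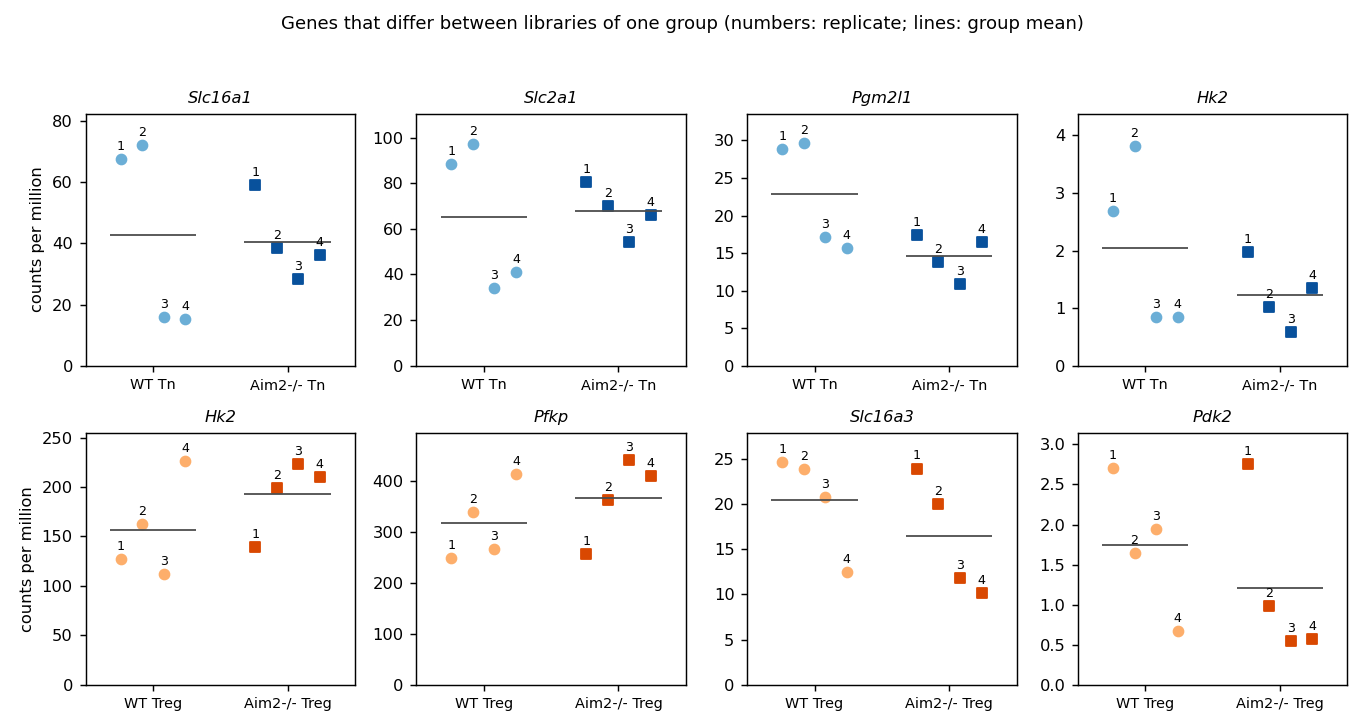
CPM of 4 genes in the naive libraries (top) and 4 in the cultured libraries (bottom), with replicate numbers and the group mean as a line. In WT Tn, replicates 1 and 2 stand above 3 and 4 for Slc16a1, Slc2a1, Pgm2l1 and Hk2, and in Treg, WT replicate 4 and Aim2-/- replicates 3 and 4 stand high for Hk2 and Pfkp and low for Slc16a3 and Pdk2.

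Whether Aim2 loss altered the response to culture was asked with the interaction term. No member passed and none had an unadjusted p under 0.05, beside 3 of 14669 genes called (0.0205%) and 3.49% at an unadjusted p under 0.05. Alternatives gave other counts of members at an unadjusted p under 0.05, with all genes of the same fit in brackets. There were 4 with the replicate block (964 of 14669 genes). Replicates 1 and 2 alone gave 5 (1663 of 13870), and replicates 3 and 4 alone 6 (1156 of 13623). The count was 4 without WT Tn replicate 3 (608 of 14636) and 3 without WT Tn replicate 4 (672 of 14577). It was 2 without Aim2-/- Treg replicate 1 (691 of 14620) and at most 1 without any other library. The interaction value of Slc16a1 was 0.63 from replicates 1 and 2 alone and -1.14 from replicates 3 and 4 alone, and that of Slc2a1 0.35 and -0.64. DESeq2 called no member. The 3 smallest p-values belonged to Pfkp (0.49 ± 0.24), Pgm1 (-0.24 ± 0.12) and Pfkl (0.27 ± 0.14), each at an adjusted p of 1.0. Pfkl lay at 86.3, 93.0, 67.1 and 64.0 CPM in WT Tn, 72.1, 58.4, 59.7 and 64.9 in Aim2-/- Tn, 103, 97.7, 105 and 107 in WT Treg and 100, 102, 108 and 105 in Aim2-/- Treg, so that the cultured groups were alike in range and the spread lay in the naive ones.

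The pathways that branch from glycolysis were described by lists of their genes, whose counts stand beside the 76.9% of all genes called in WT and 79.3% in Aim2-/- cells. In the pentose phosphate pathway, which yields NADPH and ribose, 6 of 7 genes rose in WT and 5 in Aim2-/- cells and none fell, with a median log2 fold change of 1.06 in WT. Tkt, a transketolase, went from 162 to 203 CPM in Tn to 605 to 762 in Treg, and G6pdx, the entry enzyme, from 34.1 to 43.4 to 104 to 140 (1.81 ± 0.08 and 1.40 ± 0.08 in WT, adjusted p = 2.6e-08 and 1.7e-07). All 5 hexosamine pathway genes rose in both genotypes, among them Uap1, from 22.9 to 34.2 CPM to 91.3 to 136. Of the 10 genes of the NADH shuttles, 6 rose and 2 fell in each genotype, and Slc25a13, the citrin of the malate-aspartate shuttle, went from 0.643 to 1.23 CPM to 17.9 to 24.5 (4.24 ± 0.13 in WT, adjusted p = 4.3e-09).

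Genes of pyruvate entry into mitochondria included 5 that rose and 1 that fell of 9 tested in each genotype. Subunits of the pyruvate dehydrogenase complex rose, with Dlat from 25.5 to 33.3 CPM to 60.2 to 80.9 and Pdha1 from 154 to 171 to 257 to 302, while the kinase Pdk1 fell as described above. Glycogen genes were mixed, with 2 up and 3 down of 7 tested in WT and 2 up and 1 down in Aim2-/- cells. Pygm, the muscle glycogen phosphorylase, fell from 3.27 to 9.96 CPM to 0.679 to 1.59, and Ugp2, which makes UDP-glucose, rose from 20.6 to 26.1 CPM to 42.6 to 58.1. Pygm had a second row with the same mean count (108.469), and only 1 row was used, so its level here leaves out the counts of the other. Of 6 gluconeogenesis genes, 3 were tested, and Pcx, pyruvate carboxylase, rose from 2.67 to 5.40 CPM to 21.8 to 34.1. Of 19 further isoenzymes and carriers, 12 were too low to test in WT, and of the 7 tested 2 rose and 4 fell in each genotype. Slc2a6, a lysosomal glucose carrier, rose from 0.126 to 0.371 CPM to 2.05 to 5.10, Pgam2, the muscle-type mutase, fell from 0.769 to 2.13 CPM to 0.203 to 0.691, and Bsg, the chaperone of the lactate carriers, rose from 70.9 to 101 CPM to 170 to 214 (1.16 ± 0.06 in WT, adjusted p = 1.1e-07). Of 15 upstream regulators tested, 6 rose and 5 fell in WT and 7 rose and 6 fell in Aim2-/- cells. Egln3, a HIF prolyl hydroxylase, rose from 1.42 to 3.98 CPM to 147 to 233. Txnip, which limits glucose uptake, fell from 1353 to 1652 CPM to 57.4 to 95.4, and Epas1, which encodes HIF-2 alpha, from 17.3 to 41.2 to 0.414 to 1.34. Myc, named after its values were seen, rose from 68.5 to 130 CPM to 319 to 371 (1.81 in WT, adjusted p = 2.6e-05). No gene of these 8 lists was called between the genotypes in either state or in the interaction.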

How the data were processed

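Per the study's methods, the authors mapped 51 nt single reads to GRCm38 with STAR, quantified genes with RSEM on GENCODE and deposited 1 table of expected counts per library. Tool versions and the strand setting were not given in the sources used here. After rounding of the deposited expected counts, a gene entered a comparison where 4 or more of its libraries held 10 or more counts, and was tested with edgeR 4.0.16 (TMM, robust quasi-likelihood test, Benjamini-Hochberg adjustment over all genes tested, threshold 0.05) under R 4.3.3. The authors used limma-voom, tried here as an alternative (limma 3.58.1), beside DESeq2 1.42.0, other scalings and filters, a replicate block and left-out libraries. CPM values came from 1 TMM scaling of all 16 libraries. Level per kb used the median length of the principal coding transcripts of GENCODE M21, which held an entry for all 35 genes. The scripts were tested on simulated counts. Floors cover counting error only.

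The members and lists were chosen with earlier results of these data known. Values in every library are given for the most abundant member of each step, the 6 largest rises and falls in WT whose groups did not overlap, the 4 smallest p-values per genotype comparison and 3 for the interaction, and up to 3 genes per further list are named by smallest p. Of the upstream list, Hif1a, Irf4 and Myc were named outside this rule, and so were single markers such as Ccr7, Ctla4 and Foxp3. One gene of the erythroid list is not reported here and was left out of its sum.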

Additional observations from a re-analysis of the deposited data

Results flagged for a closer look

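In 140 sets of 4 libraries (35 genes in 4 groups), 7 had a library that stood apart from the other 3 by Dixon's criterion (5%), which is the 1 in 20 that chance gives. Pfkfb2 was low in WT Treg replicate 4 (3.53 CPM, the others 5.45 to 5.78), and Pgm1 was low in WT Treg replicate 2 (17.2, the others 19.3 to 19.6). Aldoa was high in WT Tn replicate 3 (367, the others 338 to 342), and Eno2 was low in WT Tn replicate 1 (0.414, the others 0.977 to 1.05). In Aim2-/- Tn, Tigar was low in replicate 3 (23.4, the others 24.9 to 25.1), and replicate 1 was low in Eno3 (21.0, the others 26.3 to 27.3) and high in Pdk1 (380, the others 352 to 356).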

How the results depend on the processing

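The direction of every member called in both culture comparisons was kept under all alternatives. In WT, the calls of Pfkl, Pfkm and Pfkfb3 were lost from replicates 1 and 2 alone and that of Hk1 from replicates 3 and 4 alone. In Aim2-/- cells, those of Bpgm, Eno2 and Pgm2l1 were lost from replicates 1 and 2 alone. Pfkm in WT was also lost with scaling to library totals (adjusted p = 0.0534) and without a filter (0.0697), and Pgm2l1 in Aim2-/- cells with offsets for GC content and length (0.126, and 0.12 with the replicate block). The offsets added calls for Pfkfb3 and Pgm1 in Aim2-/- cells and Bpgm in WT, replicates 1 and 2 alone for Pgm2 and Bpgm in WT, and the term for replicates 1 and 2 against 3 and 4 for Slc2a1 and Bpgm in WT. Between the naive genotypes, members called higher numbered 1 with DESeq2, 1 with all 16 libraries in one fit and 2 from replicates 3 and 4 alone, where 2 were lower, against 0 with edgeR. Over all genes, that comparison called 127 with DESeq2, 47 without a filter, 18 with at least 10 counts in every library, 50 in the fit of all 16 libraries, 51 with a term for replicates 1 and 2 against 3 and 4, 15 from replicates 1 and 2 and 516 from replicates 3 and 4, against 31. In Treg the genes called were 52 with DESeq2, 17 with the stricter filter, 15 from replicates 1 and 2 and 4 from replicates 3 and 4, against 29, and members 0 in each. For the interaction they were 10 with DESeq2, 0 with the stricter filter, and 1 with the replicate block, with or without offsets for GC content and length, against 3. Same-numbered libraries did not deviate together in every pair of any comparison: the correlations were 0.487, 0.298, -0.0197 and 0.42 in Treg, 0.0289 to 0.346 in Tn and -0.0438 to 0.148 between the states. They were not taken as pairs, although 3 of the 4 Treg pairs were correlated. With the replicate block, members at an unadjusted p under 0.05 went from 2 to 8 in Treg (all genes 305 to 1104) and from 0 to 4 for the interaction, the WT fall of Bpgm was called, and no other member call changed.

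Signs were followed for all members on culture. Between the genotypes and in the interaction they were followed for the smallest p-values, and in Tn also for Slc2a1, Slc16a1 and Hk2. Among these, signs turned for 8 members, most of them near no change. Other members, which were not counted, turned between the genotypes too. From replicates 1 and 2 alone, Bpgm went from 0.165 to -0.0811 and Gapdh from 0.0968 to -0.0794 in Tn. In Treg, Pdk1 went from -0.0596 to 0.0761. Between the naive genotypes, Slc2a1 went to -0.2788 from replicates 1 and 2 and -0.007448 with GC and length offsets, Hk2 to 0.2285 from replicates 3 and 4 (-0.71 over all), and Slc16a1 to 0.2644 with limma-voom, 0.2511 with the replicate block, 0.2623 with the split term, 1.069 from replicates 3 and 4 and 0.2591 with offsets and the replicate block. On culture in WT, Pgm1 went to -0.07827 with offsets and -0.07643 with offsets and block, Pgm2 to -0.08779 from replicates 3 and 4, -0.092 with offsets and -0.0977 with both, and Pgm2l1 to -0.4131 from replicates 1 and 2, -0.158 and -0.125. In Aim2-/- cells, Pfkfb3 went to 0.01839 from replicates 1 and 2, and Pgm2 to -0.09019 from replicates 3 and 4, -0.0386 with offsets and -0.04295 with both. The cause was not tested. With 1 library left out at a time, the ranges were -0.1407 to 0.3321 for Slc2a1 and -0.3387 to 0.3206 for Slc16a1 between the naive genotypes, -0.0007836 to 0.09665 for Gpi1 and -0.1271 to 0.1439 for Pgm2l1 on culture in WT, and -0.06683 to 0.09347 for Gpi1, -0.163 to 0.03855 for Pfkfb3 and -0.0528 to 0.1766 for Pgm2 in Aim2-/- cells. No member was then called between the genotypes, and 19 rose and 8 to 9 fell in WT and 20 to 21 rose and 9 fell in Aim2-/- cells. Over all genes, 17 to 28 were called in Tn, 10 to 17 in Treg and 2 to 5 for the interaction.

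Shares depended on the length used. Without division by length, Slc2a1 held 77.41% in Treg, Hk2 45.03% in Treg, Pfkp 62.19% in Tn, Ldhb 5.45% and 0.476% in Tn and Treg, Slc16a3 9.743% in Treg and Pdk1 94.7% and 64.11%. With the union of all exons, an alternative added after the data were seen, they were 70.03% and 87.62% for Slc2a1, 1.506% and 53.74% for Hk2, 40.74% and 56.25% for Pfkp, 10.83% and 0.9981% for Ldhb, 8.255% for Slc16a3 in Treg and 86.42% for Pdk1 in Tn. The direction between Tn and Treg was kept for these 6 genes.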
